A study of Mus musculus with 6 samples.

Results

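The genes described here encode the enzymes that make and break down prostaglandins and the receptors that read them. The 10 members were chosen by name: Ptgs1, Ptgs2, Ptges, Ptgis and Ptgds for synthesis, Hpgd for breakdown, and Ptger2, Ptger3, Ptger4 and Ptgfr as receptors. They are 10 of the 56884 genes in the count table, and all 10 had enough counts to be tested. The tissue was ectopic lesions of a mouse model of endometriosis, in which pieces of uterus from a donor grow in the peritoneal cavity of a recipient. RNA came from 3 WT and 3 KO lesions, 1 library each. WT donors carried floxed Dnmt3a alleles (Dnmt3a f/f), and KO donors carried the same alleles with a Cre driven by the progesterone receptor gene (Dnmt3a f/f:PR Cre/+). Dnmt3a encodes a DNA methyltransferase that adds methyl groups to cytosines, mostly in CG dinucleotides. The donors were 8 weeks old and received 17β-estradiol, and the recipients of both groups were wild-type C57BL/6J mice with estradiol pellets. Cre acts only in donor cells that have expressed the progesterone receptor, so host cells and the remaining donor cells kept Dnmt3a in the KO lesions. The labels give 4 weeks and an injection of uterine fragments into the peritoneum, whereas the methods of the study give collection on day 21 and a fragment sutured to the mesenteric membrane.

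Prostaglandins are lipid signals made on demand. Phospholipase A2 frees arachidonic acid from membranes, the cyclooxygenases Ptgs1 and Ptgs2 turn it into prostaglandin H2, and terminal synthases turn that into prostaglandin E2, prostacyclin, prostaglandin D2, prostaglandin F2α or thromboxane. The transporter Slco2a1 takes prostaglandins up into cells, where Hpgd inactivates them. Ptgs1 is made in many tissues at a steady level and Ptgs2 is induced by inflammation and growth signals. In the uterus, prostaglandins act in implantation, menstruation and contraction, and the estrogen, inflammation and pain of endometriosis have long been tied to prostaglandin E2.

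In these lesions edgeR's quasi-likelihood test gave 0 of the 10 members an adjusted p-value under 0.05, where 0.0055% of all 18177 genes tested did (1 gene). At an unadjusted p-value under 0.05 there were 2 members, Ptgds and Ptger2, beside 14.7% of all genes. Ptgds, a prostaglandin D2 synthase, was higher in every KO lesion than in any WT lesion, with group means 3.26-fold apart. The level of Ptgs2 spanned over 2 orders of magnitude among the lesions and was lowest in 2 of the 3 KO lesions, with the third KO lesion inside the WT range. The receptors went separate ways, with Ptger2 at a lower mean and Ptger4 at a higher mean in KO. The fold changes were below 0 for 5 members and above 0 for 5, with a median log2 fold change of -0.23, and the median over all genes tested was 0.01.

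The libraries held between 45370342 and 57239184 counts. Levels are given in CPM, which sets each count against the TMM-scaled total of its library, and in RPKM where genes are compared with each other, since RPKM also divides by exon length. Dnmt3a itself ran from 43.9 to 52.7 CPM in WT and from 30.3 to 36.2 CPM in KO lesions, a lower level in every KO lesion. A count over the whole gene also takes in exons outside the deleted part. The endometrial markers were present in all libraries, with summed levels of 11522 to 20891 CPM in WT and 17366 to 37015 CPM in KO for the 8 epithelial genes, mostly the estrogen-induced Ltf, and 733 to 860 CPM in WT and 866 to 1110 CPM in KO for the 8 stromal genes. Of the stromal genes 4 were called higher in KO at the threshold of the study described with Ptgds (Hand2, Hoxa11, Esr1 and Mme), beside 3.1% of all genes. The log2 fold change was below 0 for 2 stromal genes, Pdgfra and Wnt4. Of the epithelial genes 0 were called higher. By edgeR, the lowest adjusted p of any marker gene was 0.321. The gland marker Foxa2 was low throughout, between 0 and 2.62 CPM. Some libraries stood apart in the markers of other cells. WT replicate 2 had 9894 CPM of neutrophil markers, where the other lesions had 36.4 to 491 CPM. WT replicates 1 and 3 had 27744 and 28983 CPM of skeletal muscle markers, where the others had 4.73 to 14.7 CPM. KO replicate 3 had 8284 CPM of adipocyte markers, where the others had 1176 to 5060 CPM. In RNA from whole tissue pieces, fewer cells of a type and less RNA per cell cannot be told apart.

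The region just before a gene's start, here as RefSeq places it, is where CG dinucleotides, the substrate of Dnmt3a, are usually counted. The 3 stretches printed here belong to both cyclooxygenases, of which Ptgs2 spanned a wider range among the lesions than Ptgs1, and to Ptgds, the member whose groups did not overlap. They are taken from RefSeq on GRCm38.p6 and read 5′ to 3′ on the strand of the gene, with each CG in capitals. Those of Ptgs1 (chr2:36230176-36230425, plus strand) and Ptgs2 (chr1:150099781-150100030, plus strand) are the 250 bases before the gene's start in RefSeq, and the Ptgs2 stretch overlaps an exon of Ptgs2os, a noncoding gene on the opposite strand. That of Ptgds (chr2:25469850-25469999, minus strand) is the first 150 of those 250 bases, because the remainder holds exon sequence of another transcript in GENCODE M21. That annotation has a longer transcript of Ptgds starting further upstream, so the printed stretch lies before the start in RefSeq and inside the gene in GENCODE M21.
Ptgs1: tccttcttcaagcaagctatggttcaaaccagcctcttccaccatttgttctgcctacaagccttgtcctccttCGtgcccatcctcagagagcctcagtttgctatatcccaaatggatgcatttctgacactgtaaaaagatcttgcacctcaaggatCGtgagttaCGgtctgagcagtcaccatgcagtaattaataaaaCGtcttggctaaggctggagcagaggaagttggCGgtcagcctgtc
Ptgs2: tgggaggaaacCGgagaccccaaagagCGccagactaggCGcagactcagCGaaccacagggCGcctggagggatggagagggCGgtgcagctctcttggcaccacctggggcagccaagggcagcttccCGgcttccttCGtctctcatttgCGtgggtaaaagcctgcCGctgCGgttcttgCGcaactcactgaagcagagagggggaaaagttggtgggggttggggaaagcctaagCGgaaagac
Ptgds: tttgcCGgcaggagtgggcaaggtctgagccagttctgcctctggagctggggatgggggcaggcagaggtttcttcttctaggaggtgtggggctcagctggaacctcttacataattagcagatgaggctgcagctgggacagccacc
Of 32851 such windows of 250 bases in the same table, 92.1% held at least 1 CG and the median number was 6. Of the 10 members 9 had a window, all but Ptgis. The window held 5 CG in Ptgs1, 13 in Ptgs2, 8 in Ptges, 2 in Ptgds, 9 in Hpgd, 3 in Ptger2, 21 in Ptger3, 19 in Ptger4 and 10 in Ptgfr. By the gene bounds of GENCODE M21 given with each gene, the windows of Ptges and Ptgds lie inside the gene and that of Ptgfr partly so, because RefSeq places the start elsewhere. The range thus ran from Ptgds, where 18.8% of all windows held fewer, to Ptger3, where 83.7% did. DNA methylation was not measured in these libraries, so the letters describe the windows and nothing about their state.

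The cyclooxygenases catalyse the first committed step. Ptgs1 (ENSMUSG00000047250.14, chromosome 2 of GRCm38 from 36230426 to 36252272), the steady form, was at 31.5, 48.6 and 20.2 CPM in WT replicates 1, 2 and 3 and at 37.8, 35.2 and 34.4 CPM in KO replicates 1, 2 and 3. The KO lesions sat close together inside the range of the WT lesions. The means were 33.5 ± 14.3 CPM in WT and 35.8 ± 1.79 CPM in KO (SD, n = 3 each), a log2 fold change of 0.10 with a standard error (SE) of 0.32 (edgeR adjusted p = 0.896, by Benjamini-Hochberg over all genes tested). Without WT replicate 3 the sign turned, to -0.19.
Ptgs2 (ENSMUSG00000032487.9, chromosome 1 from 150100031 to 150108227), the inducible form, was at 22.4, 481 and 11.5 CPM in the WT lesions and at 2.42, 2.26 and 28.8 CPM in the KO lesions, in the same order of replicates as everywhere else. WT replicate 2 was far above all others, KO replicates 1 and 2 were below every WT lesion, and KO replicate 3 exceeded WT replicates 1 and 3. The means of 171 ± 268 CPM in WT and 11.1 ± 15.3 CPM in KO (SD, n = 3 each) therefore had SDs above the means. The log2 fold change was -3.94 (SE 1.85, edgeR adjusted p = 0.365), and the exact two-sided permutation test of mean CPM gave p = 0.3, where 3 lesions against 3 cannot go below 0.1. Its size rested on single lesions. Without WT replicate 2 the log2 fold change was -0.60 (adjusted p = 0.843 from edgeR), and without KO replicate 3 it was -6.19 (adjusted p = 0.192).
The neutrophil markers were ordered alike among the lesions except that KO replicate 3 stood below WT, with 491, 9894 and 226 CPM in the WT lesions and 88.6, 36.4 and 206 CPM in the KO lesions. Of these 8 genes 7 were tested, and 3 were past an unadjusted p-value of 0.05 with a log2 fold change below -1, beside 5.85% of all genes. All 7 tested genes had a log2 fold change below 0. Among them S100a8, a calcium-binding protein stored in neutrophils, was at 169, 3406 and 67.4 CPM in the WT lesions and at 12.8, 2.74 and 49.0 CPM in the KO lesions, whereas Ly6g, which defines mouse neutrophils, reached 15.1 CPM in WT replicate 2 and 0.708 to 1.41 CPM elsewhere. Macrophage markers were also highest in WT replicate 2, with 1183, 2732 and 1171 CPM in the WT lesions and 744, 542 and 1396 CPM in the KO lesions. The part of these cells in the level of Ptgs2 was not tested.

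**Figure D1:**
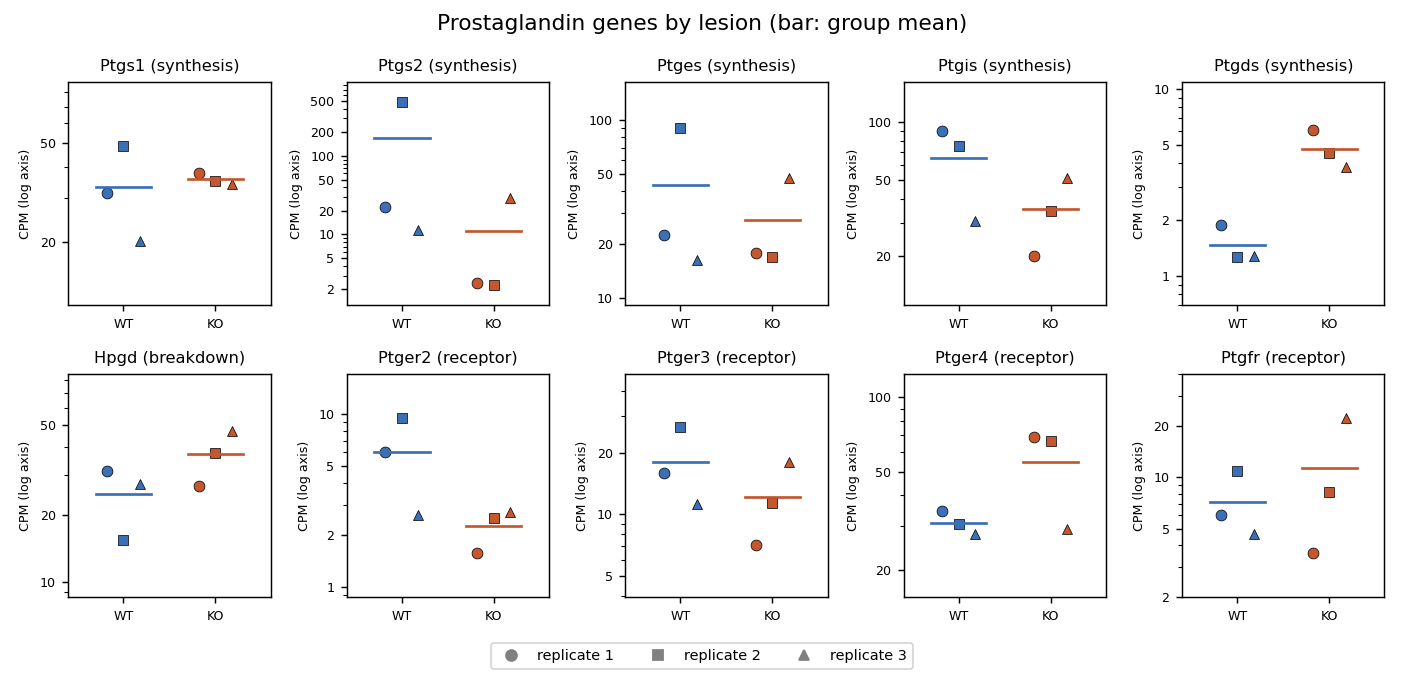
Level of each of the 10 members in CPM (log axis) in the 3 WT (blue) and 3 KO (orange) lesions, with symbols for the replicate number and a bar for the group mean. Ptgds is the member without overlap (1.26 to 1.88 CPM in WT, 3.83 to 6.03 CPM in KO), and Ptgs2 has its highest point in WT replicate 2 at 481 CPM and its lowest points in KO replicates 1 and 2.

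Measured per length, the balance of the cyclooxygenases differed in the same lesions. In RPKM, Ptgs2 made up 37.6%, 89.3% and 32.5% of the sum of Ptgs1 and Ptgs2 in WT and 5.15%, 5.18% and 41.5% in KO replicates 1, 2 and 3. WT replicate 2 was the lesion in which the inducible form exceeded the steady one, 8.38-fold, and in KO replicates 1 and 2 the ratio was 0.0543 and 0.0546. KO replicate 3 lay among the WT lesions in this ratio too, at 0.709.

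The terminal synthases came next. Ptges (ENSMUSG00000050737.14, chromosome 2 from 30889471 to 30929863), the inducible prostaglandin E synthase that works with Ptgs2, was at 22.6, 90.6 and 16.4 CPM in the WT lesions and at 17.9, 17.0 and 47.3 CPM in the KO lesions. WT replicate 2 and KO replicate 3 were the high lesions, as for Ptgs2, and the other 4 were close together. The means were 43.2 ± 41.2 CPM in WT and 27.4 ± 17.3 CPM in KO (SD, n = 3 each). The log2 fold change was -0.66 (SE 0.76, edgeR adjusted p = 0.684), and it was 0.49 without WT replicate 2, so its sign rested on that lesion.
Ptgis (ENSMUSG00000017969.14, chromosome 2 from 167191805 to 167240604) makes prostacyclin, a vasodilator. It was at 89.2, 75.4 and 30.6 CPM in the WT lesions and at 20.1, 34.5 and 51.2 CPM in the KO lesions, with WT replicate 3 among the KO lesions. The means were 65.0 ± 30.6 CPM in WT and 35.3 ± 15.6 CPM in KO (SD, n = 3 each), a log2 fold change of -0.88 (SE 0.50, edgeR adjusted p = 0.417). It stayed below 0 with each lesion left out, from -1.25 to -0.59. Vascular cells are a usual source of prostacyclin, and the 8 endothelial markers summed to 633, 689 and 568 CPM in the WT lesions and 369, 261 and 734 CPM in the KO lesions, lowest in KO replicates 1 and 2. Their part in Ptgis was not tested.
Ptgds (ENSMUSG00000015090.14, chromosome 2 from 25466709 to 25470046), the lipocalin-type prostaglandin D synthase, was at 1.88, 1.26 and 1.28 CPM in the WT lesions and at 6.03, 4.57 and 3.83 CPM in the KO lesions. Every KO lesion lay above every WT lesion, as in 10.7% of all genes tested, and it was the 1 member of 10 to do so, while 0 members lay lower in every KO lesion, as 8.74% of all genes did. The means were 1.47 ± 0.351 CPM in WT and 4.81 ± 1.12 CPM in KO (SD, n = 3 each), and the exact two-sided permutation p was 0.1, the smallest possible. The log2 fold change was 1.71 (SE 0.31, edgeR adjusted p = 0.321), and it ran from 1.51 to 1.92 with each lesion left out. The study used a threshold of 0.05 on the unadjusted p-value with a change of at least 1 on the log2 scale. There Ptgds was the 1 member called higher, beside 3.1% of all genes. As an alternative test, DESeq2 gave Ptgds an adjusted p of 8.93e-05, as the 1 member of 10 with an adjusted p-value under 0.05, beside 5.47% of the 19813 genes it adjusted. Of the 8 stromal markers, Hand2, Hoxa11, Esr1 and Mme were also higher in every KO lesion, as was Slco2a1 described with Hpgd. The groups overlapped for the other stromal markers. Of those, Hoxa10 and Pgr had a log2 fold change above 0, and Pdgfra (-0.86) and Wnt4 (-0.24) went the other way. The part of stromal cells in Ptgds or Slco2a1 was not tested. Ptgds was low per length, at 0.894 RPKM in WT and 2.92 RPKM in KO on average.

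Breakdown starts with Hpgd (ENSMUSG00000031613.10, chromosome 8 from 56294585 to 56321043), the dehydrogenase that inactivates prostaglandins E2 and F2α. It was at 31.4, 15.4 and 27.5 CPM in the WT lesions and at 26.7, 37.8 and 47.1 CPM in the KO lesions. The lowest lesion was WT replicate 2, the one with the highest Ptgs2, and KO replicate 1 lay inside the WT range. The means were 24.8 ± 8.35 CPM in WT and 37.2 ± 10.2 CPM in KO (SD, n = 3 each), with a log2 fold change of 0.59 (SE 0.33, edgeR adjusted p = 0.421). In RPKM the ratio of Ptgs2 to Hpgd, a synthesis gene over the breakdown gene, was 0.261, 11.5 and 0.153 in WT and 0.0333, 0.022 and 0.224 in KO. In WT replicate 2 Ptgs2 was thus above Hpgd, and in the other 5 lesions it was below, furthest in KO replicates 1 and 2.
The uptake transporter Slco2a1, which brings prostaglandins to Hpgd, was at 79.9, 72.5 and 80.7 CPM in the WT lesions and at 140, 189 and 129 CPM in the KO lesions. All KO lesions were above all WT lesions, and the WT lesions were close together. The means were 77.7 ± 4.48 and 153 ± 31.8 CPM (SD, n = 3 each), a 1.97-fold difference with a log2 fold change of 0.98 (SE 0.18, edgeR adjusted p = 0.321, DESeq2 adjusted p = 0.00161). With each lesion left out the log2 fold change stayed between 0.80 and 1.08.

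The receptors decide what a cell does with the signal. Ptger2 and Ptger4 encode the prostaglandin E2 receptors EP2 and EP4, which raise cyclic AMP, Ptger3 encodes EP3, which mostly lowers it, and Ptgfr encodes the prostaglandin F2α receptor, which raises calcium and contracts the uterus.
Ptger2 (ENSMUSG00000037759.7, chromosome 14 from 44988195 to 45003820) was at 6.02, 9.41 and 2.61 CPM in the WT lesions and at 1.58, 2.50 and 2.71 CPM in the KO lesions. WT replicates 1 and 2 were above all KO lesions, and WT replicate 3 was just below KO replicate 3. The means were 6.01 ± 3.40 CPM in WT and 2.26 ± 0.602 CPM in KO (SD, n = 3 each), and the log2 fold change was -1.41 (SE 0.51, edgeR adjusted p = 0.329). It was the 1 member called lower at the threshold of the study, beside 5.85% of all genes. That call was lost without WT replicate 1, WT replicate 2, KO replicate 1, KO replicate 2 or KO replicate 3, whereas the direction stayed, from -1.79 to -0.93.
Ptger4 (ENSMUSG00000039942.16, chromosome 15 from 5206661 to 5244187) was at 34.5, 30.7 and 27.9 CPM in the WT lesions and at 68.9, 66.2 and 29.2 CPM in the KO lesions. The WT lesions were close together, KO replicates 1 and 2 were far above them, and KO replicate 3 lay among them. The means were 31.0 ± 3.30 CPM in WT and 54.8 ± 22.2 CPM in KO (SD, n = 3 each), and the log2 fold change was 0.82 (SE 0.34, edgeR adjusted p = 0.340). Without KO replicate 3 it was 1.13 (adjusted p = 0.112), which passed the threshold of the study but not the adjusted one. Exons of Ptger4 overlap those of Ttc33 on the opposite strand, which had 961 to 1689 counts a library, and the strand setting of the counting is not given in the sources used here. The unscaled count of Ttc33 was 1689, 961 and 1638 in WT and 1674, 1640 and 1397 in KO. Its part in the Ptger4 count was not tested. The other opposite-strand genes with overlapping exons had few counts, with 16 to 68 for 1110018N20Rik at Ptgis, 0 to 23 for Gm17173 at Ptger2 and 4 to 38 for Gm43618 at Ptgfr.
Ptger3 (ENSMUSG00000040016.17, chromosome 3 from 157566892 to 157645888) was at 15.9, 26.8 and 11.2 CPM in the WT lesions and at 7.10, 11.3 and 18.0 CPM in the KO lesions, with overlapping groups. The means were 17.9 ± 8.0 CPM in WT and 12.1 ± 5.50 CPM in KO (SD, n = 3 each). Its log2 fold change was -0.56 (SE 0.45, edgeR adjusted p = 0.552) and ran from -0.96 to -0.16 with each lesion left out.
Ptgfr (ENSMUSG00000028036.7, chromosome 3 from 151796502 to 151837630) was at 5.98, 10.9 and 4.68 CPM in the WT lesions and at 3.58, 8.22 and 22.3 CPM in the KO lesions. KO held both the lowest and the highest lesion. The means were 7.20 ± 3.30 CPM in WT and 11.4 ± 9.75 CPM in KO (SD, n = 3 each). The log2 fold change of 0.66 (SE 0.70, edgeR adjusted p = 0.655) became -0.29 without KO replicate 3. That lesion also had the highest sum of adipocyte markers, which were at 2343, 5060 and 2032 CPM in the WT lesions and at 1176, 1828 and 8284 CPM in the KO lesions, in the same order of the lesions as Ptgfr except that KO replicate 2 stood lower. The part of adipocytes in Ptgfr was not tested.

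**Figure D2:**
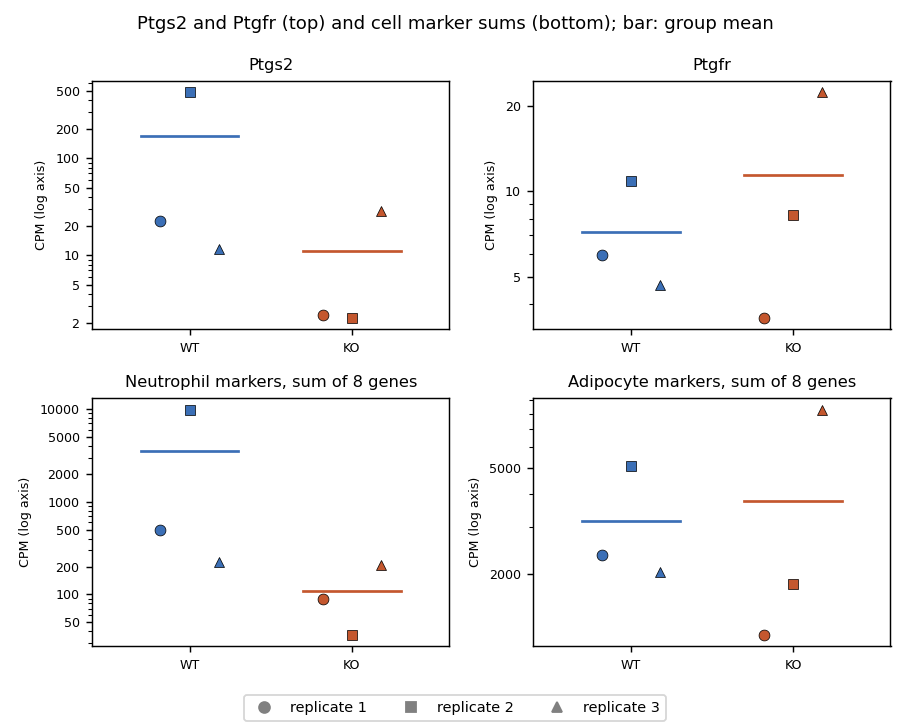
Ptgs2 above the summed level of 8 neutrophil markers and Ptgfr above the summed level of 8 adipocyte markers, each in CPM (log axis) per lesion, with a bar for the group mean; these pairs were chosen after their values were seen. WT replicate 2 is the highest lesion for Ptgs2 (481 CPM) and for the neutrophil sum (9894 CPM), and KO replicate 3 is the highest for Ptgfr (22.3 CPM) and for the adipocyte sum (8284 CPM).

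Set against each other per length, the 9 prostanoid receptor genes summed to between 14.5 and 22.8 RPKM in each lesion, and the makeup of that sum differed. Ptger4 took 28.7%, 22.5% and 28.9% of the sum in WT and 45.4%, 49.5% and 20.3% in KO replicates 1, 2 and 3. It was the largest share in KO replicates 1 and 2. Ptger2 took 6.41%, 8.86% and 3.46% in WT and 1.33%, 2.39% and 2.41% in KO, and here no KO lesion reached a WT lesion. Ptger3 took 13.5% to 23.0% in WT and 5.48% to 14.6% in KO. Ptgfr took 4.75% to 7.89% in WT and 2.32% to 15.2% in KO, with the highest share in KO replicate 3. Among the other receptors, the prostaglandin D2 receptor gene Ptgdr2 took 11.9% to 34.8% in WT and 22.9% to 34.3% in KO, and the prostacyclin receptor gene Ptgir was highest in WT replicate 2 at 17.8%. Since shares of 1 sum are tied to each other and no test was run on them, they describe these lesions only.

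**Figure D3:**
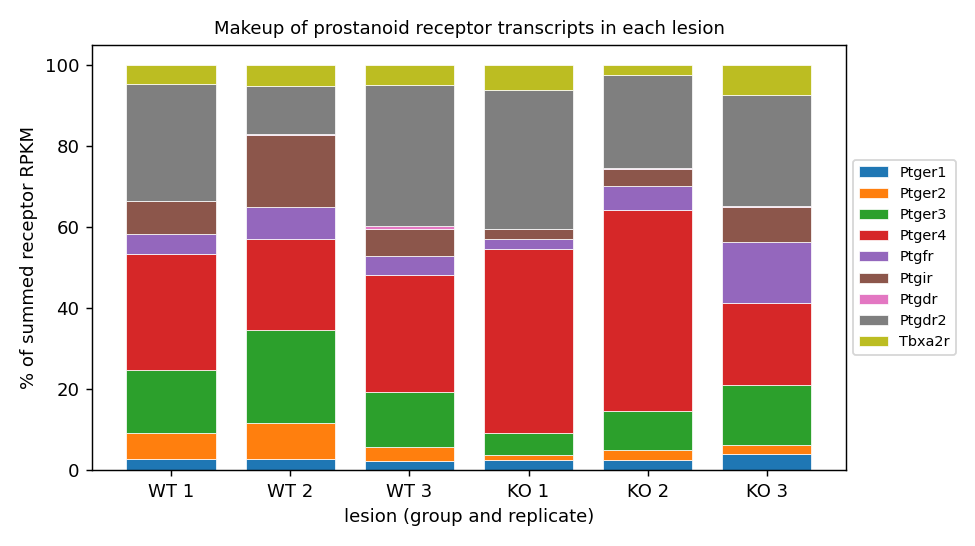
Share of each of 9 prostanoid receptor genes in their summed RPKM (%), stacked to the whole for each of the 6 lesions. Ptger4 (red) makes up 45.4% and 49.5% in KO replicates 1 and 2 and 20.3% to 28.9% in the other 4 lesions.

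Averaged over all 6 lesions, the order of the members by RPKM was Ptgs2, Ptgis, Hpgd, Ptges, Ptgs1, Ptger4, Ptger3, Ptgds, Ptgfr and Ptger2. WT replicate 2 alone had 105 RPKM of Ptgs2 and the other 5 lesions had 0.494 to 6.28 RPKM. In group means it was at 37.4 RPKM in WT and 2.43 RPKM in KO, where Ptgis was at 25.3 and 13.7, Hpgd at 14.7 and 22.1, Ptges at 11.0 and 6.97, and Ptgs1 at 8.61 and 9.21 RPKM. Among the receptors, Ptger4 was at 4.66 and 8.24, above Ptges and Ptgs2 in KO, and the others were lower, with Ptger3 at 3.15 and 2.13, Ptgfr at 1.06 and 1.68 and Ptger2 at 1.16 and 0.436 RPKM in WT and KO. Over the lesions, the ranges of every pair of neighbours in this order overlapped. With the length of the longest transcript in place of all exons, 5 of the 10 members changed place, and Ptgis came first.

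The rest of the pathway was given by 34 other genes in 5 lists, of which 31 were tested (Pla2g3, Pla2g10 and Ptgdr were too low). By edgeR, 0 of the 31 were under 0.05 after adjustment, 9 were under 0.05 before it, beside 14.7% of all genes. At the threshold of the study 1 was higher (Pla2g5), beside 3.1% of all genes, and 3 were lower (Akr1b3, Alox12 and Ltb4r1), beside 5.85%. The call of Pla2g5 was lost without WT replicate 3 or KO replicate 3, that of Akr1b3 without WT replicate 2, WT replicate 3, KO replicate 1 or KO replicate 2, and that of Ltb4r1 without WT replicate 2 or any KO lesion, whereas that of Alox12 was kept with each lesion left out. DESeq2 gave 2 of them, Slco2a1 and Alox12, an adjusted p-value under 0.05. The groups did not overlap for 7 genes that were higher in every KO lesion (Pla2g5, Pla2g6, Cbr1, Slco2a1, Ptgr2, Lta4h and Alox15), beside 10.7% of all genes, and 3 that were lower (Ptgfrn, Alox5ap and Alox12), beside 8.74%. The median log2 fold change of the 31 tested genes was -0.06.

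Among the phospholipases that release arachidonic acid, 3 of the 5 tested had a log2 fold change above 0. The secreted enzyme Pla2g5 was at 4.61, 4.23 and 3.20 CPM in the WT lesions and at 5.33, 8.62 and 14.9 CPM in the KO lesions, a log2 fold change of 1.26 (SE 0.41, edgeR adjusted p = 0.328). The cytosolic enzyme Pla2g4a, the main supplier of the cyclooxygenases and named here after its values were seen, was at 47.5, 50.6 and 48.7 CPM in the WT lesions and at 101, 117 and 47.3 CPM in the KO lesions. As with Ptger4, KO replicates 1 and 2 were high and KO replicate 3 was level with WT, and the log2 fold change was 0.86 (SE 0.33, edgeR adjusted p = 0.332). Pla2g6 differed by 0.30 (adjusted p = 0.429).
Of the 7 other prostanoid synthases, 4 were below 0 and 3 above. Akr1b3, an aldose reductase that also forms prostaglandin F2α, was at 142, 275 and 200 CPM in the WT lesions and at 73.3, 68.2 and 143 CPM in the KO lesions, with KO replicate 3 just above WT replicate 1 and a log2 fold change of -1.11 (SE 0.38, edgeR adjusted p = 0.328). Cbr1, a carbonyl reductase that converts prostaglandin E2, was at 26.2, 28.6 and 25.7 CPM in the WT lesions and at 34.9, 43.8 and 33.9 CPM in the KO lesions (log2 fold change 0.49, standard error 0.15, adjusted p = 0.325). Hpgds, the second prostaglandin D2 synthase, was at 101 CPM in KO replicate 2 and at 11.5 to 19.4 CPM in the other 5 lesions, so it did not share the pattern of Ptgds. Hpgds is a gene of mast cells among others, and the 8 mast cell markers summed to 70.3, 569 and 54.2 CPM in the WT lesions and 37.3, 168 and 64.2 CPM in the KO lesions. Hdc alone made 523 CPM in WT replicate 2 and 93.5 CPM in KO replicate 2. Cpa3 (5.72 CPM), Tpsb2 (7.49 CPM) and Kit (54.0 CPM) were highest in KO replicate 2, and the other mast cell markers were highest in WT replicate 2. The part of mast cells in Hpgds was not tested.
Of the 4 genes of transport and further breakdown, Ptgr2 differed by 0.20 (adjusted p = 0.440 from edgeR) without overlap beside Slco2a1, and Abcc4 and Ptgr1 overlapped. Of the 5 other receptor genes tested, which include the receptor regulator Ptgfrn (log2 fold change -0.28, adjusted p = 0.417), 0 reached an unadjusted p-value under 0.05.

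The lipoxygenases use the same arachidonic acid for leukotrienes and related lipids. Of the 10 genes in this list, 7 had a log2 fold change below 0, beside 8829 of all 18177 genes tested. The median was -0.72, and that of all genes was 0.01. All 7 (Alox5, Alox5ap, Ltc4s, Alox12, Ltb4r1, Cysltr1 and Cysltr2) had their highest level in WT replicate 2. Alox12 was at 11.2, 46.6 and 22.5 CPM in the WT lesions and at 3.33, 3.34 and 8.67 CPM in the KO lesions. Every KO lesion was below every WT lesion, and the log2 fold change was -2.39 (SE 0.66, edgeR adjusted p = 0.321, DESeq2 adjusted p = 0.00805). Alox15 went the other way, with 118, 68.2 and 114 CPM in the WT lesions and 255, 212 and 126 CPM in the KO lesions and a log2 fold change of 0.98 (SE 0.33, edgeR adjusted p = 0.328).
WT replicate 2 was also the lesion with the most neutrophil markers, whose part was not tested. Ltb4r1, the leukotriene B4 receptor of neutrophils, was at 2.67, 16.1 and 1.58 CPM in the WT lesions and at 0.912, 0.854 and 1.94 CPM in the KO lesions, and its log2 fold change of -2.46 (adjusted p = 0.334 from edgeR) was -0.78 without WT replicate 2. Alox5ap, the partner of 5-lipoxygenase, was at 71.1, 203 and 75.9 CPM in the WT lesions and at 70.7, 61.9 and 58.5 CPM in the KO lesions, and its log2 fold change of -0.87 was -0.20 without that lesion. Lta4h, which makes leukotriene B4, was higher in every KO lesion, by 0.31 on the log2 scale (adjusted p = 0.332).

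**Figure D4:**
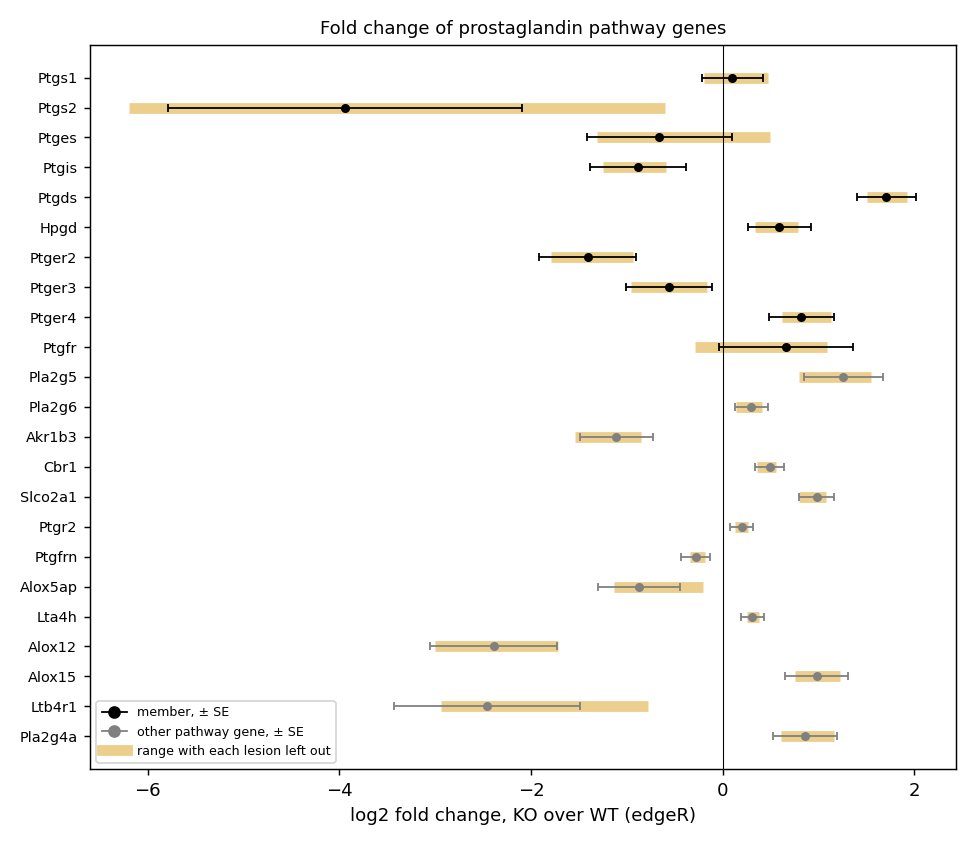
Log2 fold change of KO over WT from edgeR for the 10 members (black) and 13 other named pathway genes (grey), with the standard error as a thin bar and the range with each lesion left out as a wide band. The band of Ptgs2 runs from -6.19 to -0.60, that of Ptgds from 1.51 to 1.92, and those of Ptgs1, Ptges and Ptgfr cross 0.

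For the other marker lists the levels were as follows. Smooth muscle markers summed to 1119 to 4957 CPM in WT and 2303 to 4041 CPM in KO, of which Des alone made 2675 CPM in WT replicate 1 and 1357 CPM in WT replicate 3. Of these 8 genes 7 had a log2 fold change above 0. Myh11, Cnn1, Actg2, Smtn and Lmod1 were higher in every KO lesion, as 10.7% of all genes were. At the threshold of the study 2 (Cnn1 and Actg2) were called higher, beside 3.1% of all genes. Mesothelial markers summed to 598 to 805 CPM in WT and 434 to 849 CPM in KO. T cell markers summed to 36.9 to 99.7 CPM in WT and 8.03 to 27.6 CPM in KO. Of the T cell markers 7 of 8 were lower in KO at the threshold of the study, beside 5.85% of all genes. Nerve and Schwann cell markers summed to 113 to 163 CPM in WT and 110 to 189 CPM in KO. In this list 7 of 8 had a log2 fold change below 0, and S100b, which was above 0, alone made 88.3 CPM in KO replicate 2. Intestinal epithelial markers summed to 2.05 to 13.8 CPM in WT and 1.04 to 2.84 CPM in KO. Of the intestinal markers, Cdx2, Fabp2, Muc2, Apoa1 and Cdh17 were under 1 CPM in every lesion.

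The genes most like a member over the 6 lesions were named by Pearson's r of log2 CPM, as a description over 6 points without a test, in which a lesion that stands apart weighs heavily. For Ptgs2 they were Abcc5 (r = 0.999), Gsdme (0.999) and Dock11 (0.997). Gsdme was at 2.35, 5.58 and 2.05 CPM in the WT lesions and at 1.26, 1.29 and 2.63 CPM in the KO lesions, which is nearly the order of the lesions for Ptgs2, over a much smaller span. For Ptger4 they were Ppp4r3a (0.999), Ikzf3 (0.996) and Smim6 (0.995). Ikzf3, a lymphocyte transcription factor, was at 21.6, 17.9 and 17.4 CPM in the WT lesions and at 48.4, 43.2 and 18.8 CPM in the KO lesions, again with KO replicate 3 at the WT level. For Ptgds they were Acpp (0.994), Atp4a (0.994) and Cryz (0.992). Acpp, a prostatic acid phosphatase, was at 34.4, 27.3 and 28.8 CPM in the WT lesions and at 63.8, 58.5 and 47.3 CPM in the KO lesions, which shares the lack of overlap with Ptgds. For Ptgfr they were Cdsn (0.993), Acvr1c (0.987) and Igfals (0.986), and Acvr1c, an activin receptor of fat tissue, was highest in KO replicate 3 at 38.9 CPM, with 4.14 to 15.4 CPM in the other lesions.
For the remaining members the closest genes were Baz1b (0.993), Neil1 (0.992) and Sult5a1 (0.989) for Ptges, Zfp750 (0.997), Brf1 (0.970) and Plxna2 (0.970) for Ptgis, and Fam76a (0.990), 9130221H12Rik (0.986) and Gm43197 (0.985) for Ptger2. For Ptger3 they were Zfp90 (0.987), Ighv1-22 (0.984) and S100a1 (0.983), for Hpgd Ptar1 (0.986), Plekha6 (0.978) and Tmem17 (0.973), and for Ptgs1 E030030I06Rik (0.987), Gm21092 (0.976) and Saal1 (0.973).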

How the data were processed

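RNA from 3 WT and 3 KO lesions was sequenced as TruSeq Stranded mRNA libraries. The deposited values are raw counts of reads per gene made by the authors. Their processing notes name Trimmomatic, featureCounts and DESeq2 and the build GRCm39, whereas the methods of the study name GRCm38. The strand setting and the counting of read pairs are not given in the sources used here. Of the counts from 1 to 10, 89.7% to 91.3% were even in each library, so both mates of a pair may have been counted.

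Gene symbols, coordinates and exon lengths came from GENCODE M21 (GRCm38), in which 51948 of 56884 identifiers were found without their version, and promoter letters from RefSeq. Genes were kept by filterByExpr of edgeR 4.0.16 (R 4.3.3), scaled by TMM (factors 0.962 to 1.05) and fitted by the quasi-likelihood test with genotype as the only term, over all 18177 genes. Standard errors were obtained from the fold change and its F statistic. Permutation tests were exact and two-sided. The methods of the study give 3 donor mice a group and 1 fragment for each recipient, and the labels do not tie a library to a mouse. Reads carry no molecular identifiers and are not independent molecules.

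The members, the pathway lists and the 13 marker lists (endometrial epithelium and stroma, neutrophil, macrophage, mast cell, smooth and skeletal muscle, endothelium, mesothelium, adipocyte, intestinal epithelium, T cell, and Schwann cell and nerve) were chosen with earlier results of these data known. All members are named. Of the other pathway genes, those past the threshold of the study or without overlap are named. Pla2g4a, Hpgds, Ptgdr2 and Ptgir are given with values outside that rule. For each member, the 3 genes with at least 1 CPM whose log2 CPM (prior count 2) correlated best are named. Alternatives were DESeq2's size factors, upper quartile scaling, other filters, DESeq2 1.42.0, voom of limma 3.58.1, the replicate number as a block, each lesion left out and, chosen after seeing the data, counts divided by 2. The steps were tested on simulated data.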

Additional observations from a re-analysis of the deposited data

How the results depend on the processing

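Over 14 settings, the log2 fold changes of Ptgs2, Ptgis, Ptgds, Hpgd, Ptger2, Ptger3, Ptger4 and the 13 other named pathway genes kept their sign. Those of Ptgs1 (-0.19 without WT replicate 3), Ptges (0.49 without WT replicate 2) and Ptgfr (-0.29 without KO replicate 3) turned, and with a lesion left out they ran from -0.19 to 0.47, from -1.31 to 0.49 and from -0.29 to 1.09. Members with an adjusted p-value under 0.05 were 1 with DESeq2, which gave none to Ptgs2, and 0 in the other settings. At the threshold of the study, members higher were 2 with voom and 1 to 2 with a lesion left out (the second without KO replicate 3 was Ptger4), and members lower were 0 with voom and 0 to 2 with a lesion left out: Ptgis joined Ptger2 without WT replicate 3, and Ptgs2 took the place of Ptger2 without KO replicate 3. Other pathway genes with an adjusted p-value under 0.05 were 2 with DESeq2. At the threshold of the study 3 of them were higher with upper quartile scaling, which moved the median of all genes from 0.014 to 0.11, and 1 to 3 with a lesion left out, while 5 were lower with DESeq2 and 1 to 5 with a lesion left out. The deviations of same-numbered WT and KO lesions from their group means correlated at 0.0318, -0.152 and -0.201. Those of differently numbered lesions ran from -0.15 to 0.228. Since the deviations within a group of 3 sum to 0, these values cannot decide whether the replicate numbers pair the lesions. With the replicate block, 0 members were lower and 0 other pathway genes higher at that threshold. The cause of these changes was not tested. With the longest transcript as length, 5 members changed place in the order of levels. The common biological coefficient of variation was 44.2%.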
